A study of Mus musculus with 4 samples.

Results

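The collagen genes were taken as all genes whose single platform symbol has the form Col, a type number, the letter a and a chain number, and 44 genes, read by 46 probe sets, met this rule among 19938 genes and 35556 probe sets. They were grouped as 11 fibrillar genes (types 1, 2, 3, 5, 11, 24 and 27), 6 genes of type 4, which makes basement membranes, and 27 others. Expression was measured in whole E15 cochleas of 2 wild-type samples (replicates 2 and 3) and 2 *Meis2* flox/flox; *Pax2* Cre/+ mutant samples (replicates 1 and 2), each on a Mouse Gene 1.0 ST array. The *Pax2*-Cre driver is active in the otic placode and vesicle, so the floxed *Meis2* allele is deleted in the epithelium of the ear and in cells that descend from it. The cartilage and mesenchyme around the cochlear duct arise elsewhere. The controls are labeled only as wild type, and neither the labels nor the methods say whether they carried a floxed allele or Cre, or how many embryos gave each array sample.

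All values are log2 signals of probe sets, and differences are mutant minus wild type on that scale, tested with limma across all probe sets with an adjusted p threshold of 0.05. Median array signals were 6.63 and 6.65 on the wild-type and 6.73 and 6.72 on the mutant arrays. The deposited values of both mutant arrays were thus slightly higher in general, and median scaling, an alternative used below, removes this offset. The probe set of *Meis2* itself had signals of 9.64 and 9.38 in wild-type and 9.61 and 9.80 in mutant cochleas, and whether it reads the deleted exons is not given in the sources used here. *Xist*, the RNA of the inactive X chromosome in females, was at 5.54 and 11.51 on the wild-type arrays and at 11.83 and 11.84 on the mutant arrays, so sex was not balanced between the groups. Of the markers of the cochlear duct epithelium, all 15 measured were above the dim level defined below. In whole cochleas, more cells of a type and more RNA per cell cannot be told apart.

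Collagens are proteins of the extracellular matrix in which 3 chains wind into a triple helix. Fibrillar collagens give cartilage, bone and connective tissue their strength, type 4 forms the meshwork of basement membranes, and the remaining types decorate fibrils, anchor membranes to the matrix or span the cell surface. In the inner ear, type 2 with types 9 and 11 builds the cartilage of the otic capsule and the tectorial membrane, and mutations of several of these genes cause hearing loss. Type 4 lines the basement membranes of the cochlear duct and its vessels.

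Of 44 collagen genes, 19 rose, none was called lower and 25 did not pass the test, while over all probe sets 21.6 percent were called higher, 15.7 percent lower and 37.3 percent in either direction. The median difference of the collagen genes was 0.31 against 0.11 over all probe sets. The rises were small: 10 genes rose by 0.5 or more, as did 11.1 percent of all probe sets, and *Col1a1* alone rose by more than 2-fold. The signals of both mutant arrays lay above both wild-type arrays for 31 genes (49.7 percent of all probe sets) and below them for 5 (26.4 percent). All 44 genes had mean signals above 5.72, the 95th percentile of the olfactory and vomeronasal receptor genes, which was taken as the dim level, although *Col6a4* and *Col10a1* passed it only through the mutant arrays.

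The count rests on both mutant arrays. Without *Meis2* mutant replicate 1, 3 collagen genes were called higher (7.20 percent of all probe sets), and without *Meis2* mutant replicate 2 only *Col1a1* was (5.62 percent). The count was 13 without wild-type replicate 2 and 15 without wild-type replicate 3, where 15.4 and 14.3 percent of all probe sets were called higher (the calls of *Col6a1* without the first, *Col11a2* and *Col16a1* without the other, and *Col5a1* and *Col4a2* without either were among those lost), and 14 after median scaling of the arrays, where 14.2 percent of all probe sets were called higher and 18.1 percent lower. The mutant arrays also differed from each other in these genes. *Meis2* mutant replicate 2 lay above replicate 1 for 39 of 44 collagen genes, against 48.5 percent of all probe sets, by a median of 0.12. Between the wild-type arrays 22 of 44 were higher in replicate 3, against 58.4 percent of all probe sets.

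**Figure D1:**
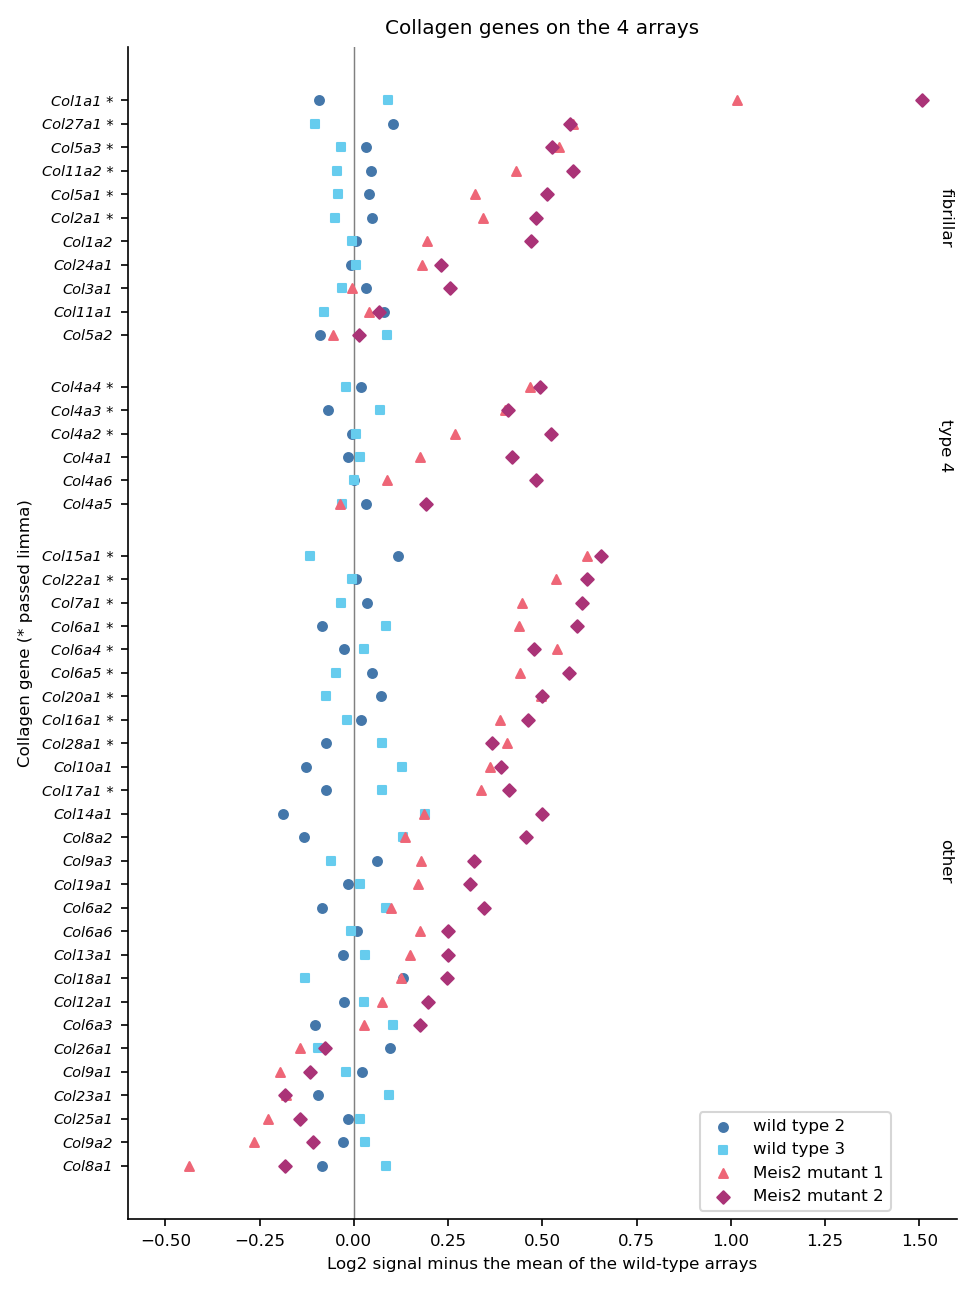
Log2 signal of each collagen gene (y axis, by class) relative to the mean of its wild-type arrays (x axis) on the 4 arrays, with an asterisk for the 19 genes past the limma threshold. *Col1a1* stands apart with mutant arrays at 1.02 and 1.51, and for most genes *Meis2* mutant replicate 2 lies to the right of replicate 1.

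Of the 11 fibrillar genes, 6 rose, and their median difference was 0.41. *Col1a1*, which encodes the alpha 1 chain of type 1, the main collagen of bone, skin and tendon, had signals of 11.12 and 11.31 in wild-type and 12.23 and 12.72 in mutant cochleas. Its mutant arrays were both above the wild-type arrays but differed from each other by more than the wild-type arrays did. The difference was 1.26 (2.40-fold, standard error, SE, 0.18, 95% confidence interval 0.79 to 1.74, limma adjusted p = 0.0089). It was the one collagen gene called under all 11 alternatives, with differences from 1.02 to 1.51 when single arrays were left out. *Col1a2*, the partner chain in the same molecule, was at 11.43 and 11.42 in wild-type and 11.62 and 11.90 in mutant cochleas. Its groups did not overlap either, yet its difference of 0.33 did not pass (95% confidence interval 0.03 to 0.63, limma adjusted p = 0.0808). It passed after repeated quantile normalization (0.49, limma adjusted p = 0.0341) and when only probe sets with 1 symbol were tested (limma adjusted p = 0.0423). Within each array, *Col1a1* relative to *Col1a2* was 0.82 and 1.04 higher on the mutant arrays than the wild-type mean, against 0.10 to either side on the wild-type arrays. An exact two-sided permutation test of this mean shift of 0.93 gave p = 0.333, the smallest value that 2 against 2 arrays allow.

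The collagens that build cartilage fibrils had unequal differences. *Col2a1*, the main collagen of cartilage, was at 12.61 and 12.51 in wild-type and 12.91 and 13.05 in mutant cochleas, with no overlap, and rose by 0.41 (SE 0.09, limma adjusted p = 0.0269). Its call ended after median scaling (0.33, limma adjusted p = 0.0578), and it also ended when wild-type replicate 3 or either mutant array was left out. *Col11a2*, a chain of the type 11 collagen found inside cartilage fibrils and in the tectorial membrane, rose by 0.51, from 9.65 and 9.56 to 10.03 and 10.19 (limma adjusted p = 0.0165). Its partner *Col11a1* was at 11.54 and 11.38 in wild-type and 11.50 and 11.53 in mutant cochleas. These groups overlapped, and the difference of 0.05 (95% confidence interval -0.19 to 0.29) turned to -0.031 after median scaling. Relative to *Col11a1*, *Col11a2* was 0.39 and 0.51 above the wild-type mean on the mutant arrays (exact permutation p = 0.333, the smallest possible). *Col27a1*, a fibrillar collagen of growing cartilage, rose by 0.58 from 9.40 and 9.20 to 9.88 and 9.88 (SE 0.10, limma adjusted p = 0.0137). *Col24a1*, expressed in developing bone, was at 7.42 and 7.43 in wild-type and 7.61 and 7.66 in mutant cochleas and did not pass (0.21, limma adjusted p = 0.0962).

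Among the fibrillar collagens of connective tissue, chains of type 5, which sets the diameter of type 1 fibrils, also had unequal differences. *Col5a3* rose by 0.53, from 6.72 and 6.66 to 7.24 and 7.22 (SE 0.08, limma adjusted p = 0.00931). *Col5a1* rose by 0.42, from 8.74 and 8.66 to 9.02 and 9.21 (limma adjusted p = 0.0316, 0.0671 after median scaling). *Col5a2* was at 8.43 and 8.61 in wild-type and 8.46 and 8.53 in mutant cochleas. Its mutant values lay between the wild-type values, and the difference was -0.02 (95% confidence interval -0.27 to 0.23), or 0.056 after repeated quantile normalization. Relative to *Col5a2*, *Col5a1* was 0.38 and 0.50 above the wild-type mean on the mutant arrays, and *Col5a3* was 0.60 and 0.51 above it. The wild-type arrays lay 0.13 and 0.12 to either side (exact permutation p = 0.333 for each pair, the smallest possible). *Col3a1*, the partner of type 1 in soft tissue and vessel walls, was at 10.62 and 10.56 in wild-type and 10.59 and 10.84 in mutant cochleas, which overlapped, with a difference of 0.12 (limma adjusted p = 0.418).

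**Figure D2:**
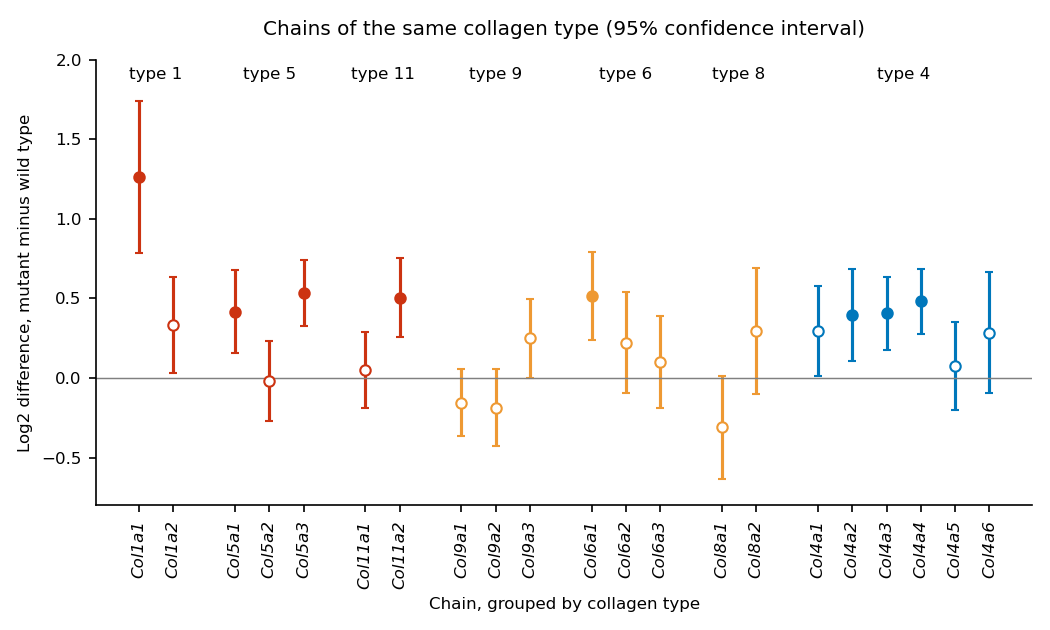
Log2 difference between mutant and wild-type cochleas (y axis) with its 95% confidence interval from limma for the chains of 7 collagen types (x axis), where filled points passed the threshold. *Col1a1* (1.26) and *Col1a2* (0.33) lie far apart, while the chains of type 4 lie between 0.08 and 0.48.

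All 6 chains of type 4 had positive differences, with a median of 0.35, and 3 of them rose, although *Col4a5* turned to -0.0076 after median scaling. *Col4a1* and *Col4a2* make the form found in nearly all basement membranes. *Col4a2* was at 9.20 and 9.21 in wild-type and 9.47 and 9.73 in mutant cochleas and rose by 0.39 (limma adjusted p = 0.0473, 0.0989 after median scaling). *Col4a1* was at 9.04 and 9.07 in wild-type and 9.23 and 9.47 in mutant cochleas, again without overlap, and did not pass (0.30, limma adjusted p = 0.0899). The genes stand head to head, with starts 21 bases apart on opposite strands in GRCm38.p6. The change of *Col4a2* exceeded that of *Col4a1* by 0.10, with groups that did not overlap (exact permutation p = 0.333, the smallest possible).

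*Col4a3* and *Col4a4*, chains of the specialized basement membranes of kidney and cochlea that are affected in Alport syndrome, both rose. *Col4a3* had signals of 6.20 and 6.33 in wild-type and 6.67 and 6.67 in mutant cochleas, a difference of 0.41 (limma adjusted p = 0.0238, 0.0440 after median scaling). Its call ended after repeated quantile normalization and without wild-type replicate 2. *Col4a4* had signals of 6.59 and 6.55 in wild-type and 7.04 and 7.06 in mutant cochleas, a difference of 0.48 (SE 0.08, limma adjusted p = 0.0114). Within each of these genes both mutant arrays were nearly equal and clear of the wild-type arrays. *Col4a5*, the X-linked chain of the same network, was at 6.91 and 6.85 in wild-type and 6.85 and 7.07 in mutant cochleas, which overlapped (0.08, 95% confidence interval -0.20 to 0.35). *Col4a6*, its X-linked neighbor, was at 6.23 and 6.23 in wild-type and 6.31 and 6.71 in mutant cochleas, where *Meis2* mutant replicate 2 stood well above the other 3 arrays (0.29, limma adjusted p = 0.183). The calls of *Col4a2*, *Col4a3* and *Col4a4* all ended without either mutant array.

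Of the 27 other collagens, 10 rose, none was called lower, and the median difference was 0.25. *Col15a1*, a multiplexin of the zone between basement membrane and connective tissue, was at 8.80 and 8.57 in wild-type and 9.30 and 9.34 in mutant cochleas and rose by 0.64 (SE 0.11, limma adjusted p = 0.0126). The other multiplexin, *Col18a1*, the source of endostatin, had a difference of 0.19 (limma adjusted p = 0.265). *Col22a1*, a collagen of tissue junctions such as that of muscle and tendon, rose by 0.58, from 6.65 and 6.64 to 7.18 and 7.27 (SE 0.08, limma adjusted p = 0.00811). *Col7a1*, the anchoring fibril of skin, rose by 0.53, from 7.09 and 7.02 to 7.50 and 7.66 (limma adjusted p = 0.0146). With *Col1a1*, these last 2 genes were those still called without *Meis2* mutant replicate 1.

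Type 6, the beaded filament collagen around cells of connective tissue and muscle, had 3 of its 6 genes called. *Col6a1* was at 8.97 and 9.15 in wild-type and 9.50 and 9.65 in mutant cochleas and rose by 0.52 (limma adjusted p = 0.0209). Its partners in the same filament were below the threshold, with 0.22 for *Col6a2* and 0.10 for *Col6a3* (limma adjusted p = 0.206 and 0.492). *Col6a1* exceeded *Col6a3* in change by 0.41 and 0.42 on the mutant arrays (exact permutation p = 0.333, the smallest possible). The relatives *Col6a4* and *Col6a5*, neighbors on chromosome 9, had low signals in wild-type cochleas (5.63 and 5.69, and 6.09 and 5.99), and each had a difference of 0.51 that passed (limma adjusted p = 0.0109 and 0.0153). The wild-type signals of *Col6a4* were below the dim level, so its difference is set against a signal not above background. A second probe set of *Col6a5*, which is dim, had a difference of 0.17 (limma adjusted p = 0.298). The probe sets of *Col6a6* pointed in opposite directions, at 0.21 for the brighter and -0.37 for the other, and neither passed.

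The collagens that sit on fibril surfaces, called FACITs, included the cartilage collagen type 9, none of whose chains passed. *Col9a1* and *Col9a2* had differences of -0.16 and -0.19 and *Col9a3* of 0.25. *Col9a3* relative to *Col9a1* was 0.37 and 0.43 above the wild-type mean on the mutant arrays. In this class *Col16a1* and *Col20a1* rose by 0.42 and 0.50 beside *Col22a1*, while *Col12a1*, *Col14a1* and *Col19a1* had differences from 0.14 to 0.34 and did not pass. *Col17a1*, a transmembrane collagen of hemidesmosomes, rose by 0.37, and *Col28a1* rose by 0.39. Both calls ended after median scaling (limma adjusted p = 0.0679 and 0.0554). *Col10a1*, the collagen of hypertrophic cartilage, lay just outside the threshold at 0.37 (limma adjusted p = 0.0537). It was called by significance analysis of microarrays (SAM), with the filter on dim probe sets, over probe sets with 1 symbol and without wild-type replicate 3.

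Among the probe sets that stand for a gene, the lowest difference was that of *Col8a1*, a network collagen of vessel walls and other membranes. It was at 9.98 and 10.16 in wild-type and 9.63 and 9.89 in mutant cochleas, with no overlap, a difference of -0.31 (limma adjusted p = 0.109). Its partner *Col8a2* had a difference of 0.29 (limma adjusted p = 0.183), and the within-array gap between the chains shifted by 0.60. *Col23a1*, *Col25a1* and *Col26a1* also had negative differences, from -0.11 to -0.19. The transmembrane *Col13a1* was at 0.20, and none of these passed the test.

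Calls were spread unevenly over the range of signal. Of 17 collagen genes with a mean signal from 5.72 to 8, 10 were called higher, against 27.7 percent of probe sets in that range. These include *Col6a4* (called) and *Col10a1* (not called), which entered the range through their mutant signals. From 8 to 10, 7 of 16 were called higher against 26.3 percent. Above 10 only *Col1a1* and *Col2a1* were called, 2 of 11, against 26.96 percent. The median difference of the collagen genes was 0.39, 0.32 and 0.12 in these ranges, and that of all probe sets 0.18, -0.01 and -0.02.

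**Figure D3:**
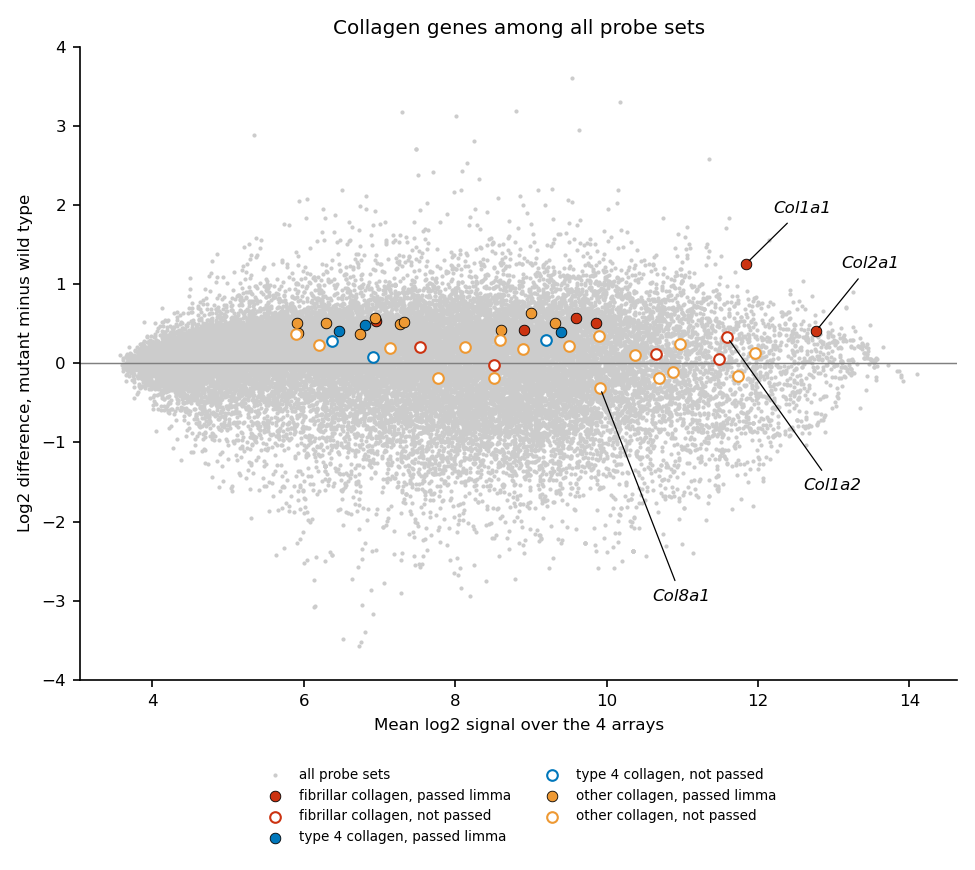
Log2 difference between mutant and wild-type cochleas (y axis) against mean log2 signal (x axis) for all 35556 probe sets (gray) and the 44 collagen genes (colored by class, filled where limma passed). *Col1a1* at 1.26 stands above the other collagen genes, which range from -0.31 to 0.64.

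Since Meis proteins bind DNA at TGACAG, and with Pbx and Hox partners at TGATNNAT or AGATNNAT, the 250 bases before each start were searched for these letters on both strands. RefSeq promoters of GRCm38.p6 were at hand for 35 of 44 collagen genes (38 promoters). *Col1a1*, *Col2a1*, *Col4a3*, *Col5a2*, *Col9a3*, *Col12a1*, *Col14a1*, *Col22a1* and *Col26a1* were not among them. TGACAG was present in 5 of 38 collagen promoters (13.2 percent, against 15.9 percent of 32851 promoters), those of *Col3a1*, *Col4a6*, *Col6a6*, *Col7a1* and *Col19a1*. Of these genes *Col7a1* alone was called. TGATNNAT was present in 2 (5.26 percent against 7.68 percent) and AGATNNAT in 1 (2.63 percent against 8.17 percent). The GC box GGGCGG, the site of Sp1, was present in 22 of 38 (57.9 percent, against 32.7 percent of all promoters), while CCAAT (34.2 against 33.8 percent) and TATAAA (13.2 against 12.4 percent) were at the general share. A match is a description of these windows and not a measured binding site. In an otic cell line the paper found most Meis2 binding sites far from the nearest start. Windows of 250 bases do not search those regions, so the lack of a match does not speak to binding there.

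The promoters below hold a Meis or Pbx-Hox match, 2 of genes that rose and 2 of genes that did not pass, and run 5′ to 3′ on the strand of the gene with those matches in capitals. Matches on the opposite strand read CTGTCA, ATNNATCA or ATNNATCT. The window of *Col7a1* is chr9:108953336-108953585 on the plus strand and that of *Col27a1*, where TGATNNAT and AGATNNAT overlap, is chr4:63215162-63215411 on the plus strand. The window of *Col3a1* is chr1:45311288-45311537 on the plus strand and that of *Col4a6* is chrX:141474077-141474326 on the minus strand, all in GRCm38.p6.
Col7a1: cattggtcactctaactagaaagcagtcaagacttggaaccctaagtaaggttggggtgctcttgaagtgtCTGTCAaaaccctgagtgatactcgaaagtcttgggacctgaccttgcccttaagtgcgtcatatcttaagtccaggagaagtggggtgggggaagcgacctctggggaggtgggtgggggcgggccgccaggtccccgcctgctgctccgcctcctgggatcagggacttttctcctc
Col27a1: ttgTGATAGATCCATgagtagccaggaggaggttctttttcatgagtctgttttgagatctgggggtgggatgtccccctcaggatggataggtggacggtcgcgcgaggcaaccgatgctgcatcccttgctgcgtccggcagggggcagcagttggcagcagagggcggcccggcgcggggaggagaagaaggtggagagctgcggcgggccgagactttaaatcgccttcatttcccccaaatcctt
Col3a1: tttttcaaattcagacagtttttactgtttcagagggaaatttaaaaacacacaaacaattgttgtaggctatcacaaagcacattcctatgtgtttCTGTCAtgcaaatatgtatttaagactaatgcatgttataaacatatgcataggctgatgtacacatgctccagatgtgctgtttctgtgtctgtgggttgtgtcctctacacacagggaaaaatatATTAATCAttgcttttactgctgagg
Col4a6: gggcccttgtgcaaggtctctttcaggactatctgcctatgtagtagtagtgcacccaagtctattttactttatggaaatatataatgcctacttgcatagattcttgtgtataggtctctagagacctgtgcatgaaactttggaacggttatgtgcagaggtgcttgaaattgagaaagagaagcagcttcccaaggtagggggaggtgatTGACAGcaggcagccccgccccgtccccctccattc

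*Col7a1* and *Col27a1* rose by 0.53 and 0.58, while *Col3a1*, which holds both a TGACAG and a TGATNNAT match, and *Col4a6* had differences of 0.12 and 0.29 that did not pass.

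Genes that make, ship and bind collagen were called in both directions, as were probe sets in general. Of 112 measured genes in 9 lists, 36 were higher (32.1 percent, against 21.6 percent of all probe sets) and 20 lower (17.9 against 15.7 percent), with a median of 0.14. Most of these genes were above the dim level. In the ranges of signal above that level, 26.3 to 27.7 percent of probe sets were higher and 14.7 to 30.9 percent lower. After median scaling 22 were higher and 25 lower, where 14.2 and 18.1 percent of all probe sets were. Without *Meis2* mutant replicate 1 the counts were 12 and 10 (7.20 and 9.15 percent of all probe sets), and without replicate 2 they were 8 and 6 (5.62 and 7.35 percent). Of 19 genes of hydroxylation, glycosylation and folding, 7 were higher and 4 lower. *Crtap* rose by 1.01 (SE 0.08, limma adjusted p = 0.00323), from 10.79 and 10.73 to 11.80 and 11.73. *Ppib* fell by 0.9995 (SE 0.09, limma adjusted p = 0.00396), from 12.14 and 12.30 to 11.26 and 11.18. Both proteins belong to the complex that hydroxylates prolines at position 3, so these members of 1 complex lay in opposite directions. *P3h1*, the enzyme of that complex, named here after its value was seen, rose by 0.31 (limma adjusted p = 0.0445). *Serpinh1*, the collagen chaperone HSP47, named here after its value was seen, had a difference of -0.25 and did not pass. Of 11 genes of export from the endoplasmic reticulum, 3 were higher and 4 lower. *Sar1b*, a GTPase of the vesicle coat, fell by 1.73, from 9.97 and 10.19 to 8.45 and 8.25, and *Mia3*, which loads procollagen into vesicles, fell by 0.61 (limma adjusted p = 0.00279 and 0.0238). *Creb3l2*, a transcription factor of secretory cargo, rose by 0.76.

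Of 6 measured enzymes that crosslink collagen outside the cell, 5 rose and none was called lower. *Tgm2* (0.65) and *Loxl1* (0.53) were among them, while *Lox*, named here after its value was seen, had a difference of -0.09 and did not pass. The count was 2 after median scaling, 2 without wild-type replicate 3, and 1 without either mutant array. Of 11 basement membrane partners, 6 rose and none was called lower, with a median of 0.41. *Hspg2*, the proteoglycan perlecan, rose by 0.88, from 11.11 and 10.95 to 11.87 and 11.94 (SE 0.09, limma adjusted p = 0.00481), and *Nid2*, which links laminin to type 4 collagen, rose by 0.58. The count was 3 without *Meis2* mutant replicate 1, 1 without replicate 2 and 4 without wild-type replicate 3. Of 9 proteins that remove propeptides or assist it, 3 were higher and 2 lower, and *Adamts14*, a procollagen N-proteinase, rose by 1.08 while *Pcolce2* fell by 0.57.

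Of 16 fibril-associated proteins, 4 were higher (25 percent) and 5 lower (31.25 percent). Probe sets in the ranges of signal above the dim level had shares of 26.3 to 27.7 and 14.7 to 30.9 percent. *Prelp* rose by 1.13, and *Epyc*, *Ogn* and *Lum*, small leucine-rich proteoglycans like it, fell by 0.68, 0.64 and 0.64. Of 9 collagen receptors, 4 were higher and 1 lower. *Itga2* and *Itga1*, integrin chains that bind collagen with the same beta 1 partner, lay in opposite directions. *Itga2* was at 6.47 and 6.67 in wild-type and 8.15 and 8.55 in mutant cochleas and rose by 1.78, and *Itga1* was at 8.82 and 8.87 in wild-type and 7.79 and 8.12 in mutant cochleas and fell by 0.89 (limma adjusted p = 0.00365 and 0.00896). *Itga10*, the collagen integrin of cartilage, rose by 1.06. Of 17 genes of collagen breakdown and its inhibitors, 2 were higher (*Timp2* by 0.48 and *Adamts4* by 0.78) and 1 lower (*Fap* by 1.05). The wild-type signals of *Adamts4* were far apart, at 6.52 and 7.12, and its call ended after median scaling (limma adjusted p = 0.0594). Of 15 transcription factors of collagen genes, 2 were higher and 3 lower. *Sox6*, a partner of Sox9 in cartilage, rose by 0.51, *Twist1* fell by 0.70, and *Sox9*, named after its value was seen, had a difference of 0.12. The call of *Sox6* ended after median scaling (limma adjusted p = 0.0527).

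**Figure D4:**
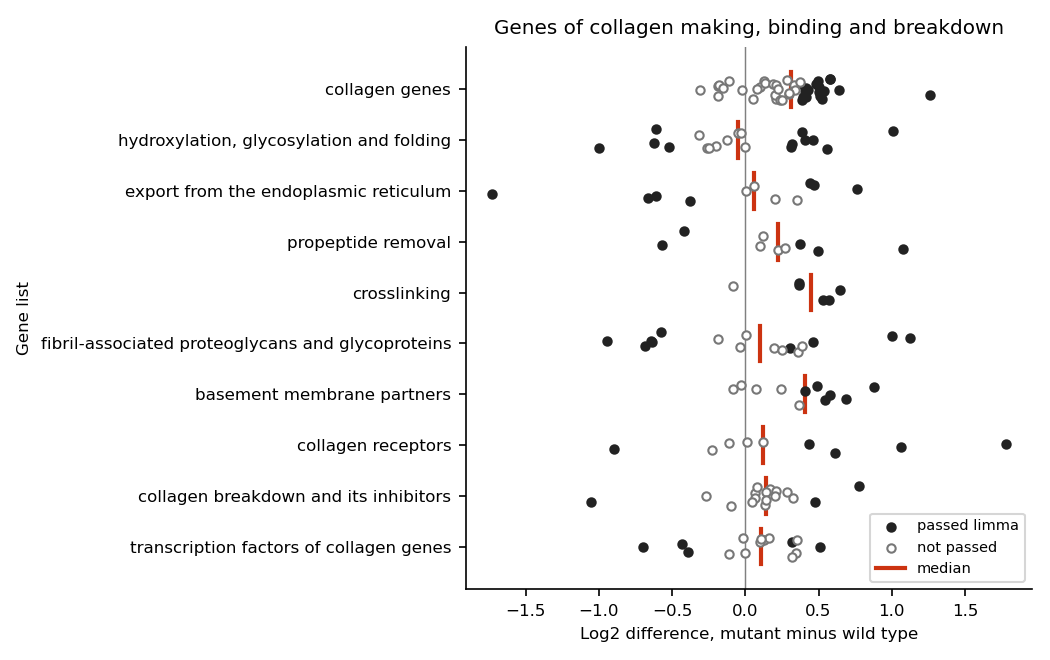
Log2 difference between mutant and wild-type cochleas (x axis) for each gene (points, filled where limma passed) of the collagen genes and of 9 lists of the collagen pathway (y axis), with medians as red bars. The collagen genes (0.31), crosslinking (0.45) and basement membrane partners (0.41) have the highest medians, and the collagen genes are at 0.23 after median scaling.

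Markers of cells that a whole cochlea can hold were counted in the same fit, and their part in these results was not tested. In that fit 21.6 percent of all probe sets were called higher and 15.7 percent lower. In the ranges of signal above the dim level these shares were 26.3 to 27.7 percent and 14.7 to 30.9 percent. Of 14 cartilage markers, 7 were higher and none lower (3 higher without either mutant array), with a median of 0.42 and a summed linear signal of 36164 and 33878 on the wild-type and 45415 and 44231 on the mutant arrays. Of 15 skeletal muscle markers, 12 were higher, with summed signals of 1343 and 1591 against 2188 and 3016, where *Meis2* mutant replicate 2 was the higher mutant array. Of 9 markers of pericytes and smooth muscle, 4 were higher and 1 lower, with summed signals of 5304 and 5206 against 7981 and 8419. Their median difference was -0.07, however, and 5 of the 9 differences were negative. Endothelium had 1 of 11 markers higher, at 9098 and 9707 against 10420 and 10963. Bone and perichondrium, where *Col1a1* is abundant, had 6 markers measured, of which none was called higher and 1 was lower, and the summed signals of 693 and 913 in wild-type and 859 and 966 in mutant cochleas overlapped. Periotic mesenchyme had 3 of 12 markers higher and 3 lower, and meninges 1 of 9 higher and 2 lower. Schwann and satellite glia had 2 of 8 higher and 3 lower, cochlear duct epithelium 5 of 15 higher and 2 lower, and erythroid cells 3 of 4 higher and 1 lower.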

How the data were processed

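The deposited values are RMA signals on the log2 scale, for which the authors removed background, normalized each array and the set of arrays, and summarized probes into probe sets. The genome build mm8 is named in the submitters' processing notes. Scanner files were not used here, and these steps were kept as deposited. limma 3.58.1 in R 4.3.3 was fitted to all 35556 probe sets, with no covariate and no filter, Benjamini-Hochberg adjustment over all of them and a threshold of 0.05. Residual degrees of freedom were 2, to which the prior added 2.91. The number of arrays limits the precision, and p-values measure only the spread between these samples, which may be technical. The methods name significance analysis of microarrays (SAM), which was run as an alternative, since 4 arrays allow 6 relabelings. The SAM run here called 26962 of 35556 probe sets, with more of them higher than lower in mutant cochleas. The paper reports far fewer differentially expressed transcripts, nearly all of them lower in mutant cochleas. The SAM calls given here are therefore not those of the paper, and the cause of this gap was not tested.

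Probe sets were named from the platform annotation where it gives 1 symbol (21789 probe sets), with list genes updated through Entrez numbers. The probe set with the highest mean stands for a gene. The members and lists were chosen with earlier results of these data known. Genes are named with their values if they are fibrillar or type 4 collagens or rose by 0.5 or more, and pathway examples come from the 4 smallest unadjusted p of each list. Some listed genes were not analysed here, and counts are over the measured ones. Promoters are RefSeq sequences of GRCm38.p6. When tested on simulated data for 35556 probe sets in this comparison, limma recovered 57 of 100 differences of 1 and 97 of 100 differences of 2 on the log2 scale. The simulation changed only these probe sets, a far smaller share than was called in the data. Its recovery therefore does not carry over to the collagen genes, whose differences were mostly smaller. Beside SAM, the alternatives rescaled arrays to equal medians or repeated the quantile normalization, removed dim probe sets, used a trended and robust prior, kept probe sets with 1 symbol, averaged a gene's probe sets, and left out each array in turn, where the lone array of a genotype is assumed to vary like the others.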

Additional observations from a re-analysis of the deposited data

How the results depend on the processing

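SAM called 26962 of 35556 probe sets, with 50 percent of all probe sets higher and 25.8 percent lower. It called 33 of 44 collagen genes higher and 5 lower (type 4: 5 higher, others: 20 higher and 5 lower). Of 112 pathway genes it called 61 higher, near the share of all probe sets, and it called 1 cartilage marker lower. Median scaling gave a median difference of 0.23 for the collagen genes, 22 pathway genes and 2 crosslinking genes higher, and turned *Col11a1* to -0.031 and *Col4a5* to -0.0076. Repeated quantile normalization turned *Col5a2* to 0.056. Of the 19 collagen calls, 6 ended in at least 1 of the 7 alternatives that leave out no array and 18 without some array. When single arrays were left out, the collagen genes called higher numbered 1 to 15 (fibrillar 1 to 5, type 4 0 to 2, others 0 to 10), none was called lower, and their median ranged from 0.18 to 0.41. Pathway genes called higher numbered 8 to 29 and lower 6 to 16, crosslinking genes 1 to 5, basement membrane partners 1 to 5 and cartilage markers 3 to 7. Differences ranged from -0.027 to 0.13 for *Col11a1*, from -0.0049 to 0.25 for *Col3a1*, from -0.037 to 0.19 for *Col4a5* and from -0.11 to 0.069 for *Col5a2*. The cause of these shifts was not tested, apart from the single array that each leave-out removes. Of 35 pathway calls followed, 12 held under every alternative run. No paired analysis was possible because the genotypes share only 1 replicate number.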
